A study of Homo sapiens with 4 samples.

Results

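The respiratory chain and ATP synthase genes are the nuclear genes of oxidative phosphorylation, taken here by gene symbol. They comprised every NDUFA, NDUFB, NDUFC, NDUFS and NDUFV gene, the SDH genes, the UQCR genes with CYC1, CYCS, the ubiquitously expressed COX subunit genes and every ATP5 gene apart from ATP5SL. These rules found 80 of the 26364 genes listed, and the rules use symbols alone, with no threshold on a measured value. They fell into 36 genes of complex I, 4 of complex II, 9 of complex III, 1 of cytochrome c, 12 of complex IV (NDUFA4 was counted there) and 15 of ATP synthase. The remaining 3 carry an ATP5 symbol without encoding a subunit of the enzyme in this grouping: ATP5S, ATP5EP2 and ATP5L2.

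The respiratory chain carries electrons from NADH (complex I) and succinate (complex II) through complex III and cytochrome c to oxygen at complex IV. Complexes I, III and IV pump protons across the inner mitochondrial membrane, and ATP synthase lets them flow back to make ATP. Most subunits are encoded in the nucleus and imported, while a few core subunits are encoded by mitochondrial DNA, and MYC family factors are known to act on many genes of mitochondrial function in tumour cells.

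The cells were BE(2)C, a human neuroblastoma line in which MYCN is amplified, and RNA-seq was run on 2 groups of 2 samples. Ctrl cells, whose genotype is given as wild type, received a non-targeting siRNA, and MYCN KD cells received siRNA against MYCN. In both groups the labels give 80 nM siRNA with a lipid reagent for 6 h and RNA extraction on the next day, while the study's methods give another concentration. The comparison thus rests on siRNA in 1 cell line. Whether the replicates were separate cultures is not stated in the labels, so that the p-values measure only the spread between these samples.

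The deposited values are RPKM, reads per kilobase of gene scaled to the size of the library, made by the authors from normalized counts. The reads behind each sample were recovered from them and came to between 29055819 and 34142988. MYCN, on chr2:16080672-16087129 of GRCh37, was at 1068 and 1073 RPKM in Ctrl and at 720.2 and 718.0 RPKM in MYCN KD, so that 67.2% of the control level remained at the time of sampling (log2 fold change -0.57, limma, Benjamini-Hochberg adjusted p = 0.00361). The log2 fold change of MYCN was -0.51 with all samples set to an equal total RPKM and -0.38 after quantile normalization, which forces the same distribution on each sample, and it was called under both. How far replicate 1 lay from the mean of its group was close to a mirror image in Ctrl and MYCN KD, with a correlation of -0.985 over 11411 genes. The replicate spread behind each test is limited in this way, and whether the authors' normalization shaped it was not tested. All 10 noradrenergic neuroblastoma markers were expressed, at a summed level of 3246 to 3509 RPKM in Ctrl and at 4631 to 5001 RPKM in MYCN KD, and their part in the results was not tested. In these bulk samples, fewer cells of a type and less RNA per cell cannot be told apart.

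Most members did not pass the test between Ctrl and MYCN KD, and those that fell included subunits of every complex and cytochrome c. COX5B of complex IV fell to 53.1% of its control level. ATP5G1, UQCRC2, SDHB, ATP5C1, ATP5F1 and NDUFA8 fell to between 73.1% and 76.6%. COX8A rose to 122% and NDUFA1 to 115%. The summed level of the 78 tested members in MYCN KD was 95.5% of that in Ctrl, and they held 3.48% to 3.56% of all RPKM in each of the 4 samples.

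Of the 80 members, 78 had a mean of at least 1 RPKM and were tested with limma on log2(RPKM + 1), together with all other genes above that level. At an adjusted p under 0.05, 19 fell, which is 24.4% of those tested, beside 22.8% of all 11411 genes. Rises were called for 3 members, or 3.85%, beside 25.3% of all genes. The other 56 did not pass the test. The median log2 fold change of the members was -0.06 and that of all genes 0.03. The counts depended on the scaling. With all samples set to an equal total RPKM, 13 members fell and 11 rose (16.7% and 14.1%), beside 18.6% and 28.8% of all genes. After quantile normalization 12 fell and 14 rose (15.4% and 17.9%), beside 26.3% and 25.3% of all genes. The median of the members became 0.01 under both. That of all genes was 0.08 with the total set equal and -0.0011 after quantile normalization. The members' median thus lay below that of all genes as deposited and with the total set equal, but not after quantile normalization. Its sign depended on the scaling.

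Under all 3 scalings 11 members fell, namely NDUFA8, NDUFA12, NDUFV3, NDUFB9, SDHB, UQCRC2, UQCRFS1, COX5B, ATP5G1, ATP5C1 and ATP5F1. The 3 that rose under all 3 were NDUFB2, NDUFA1 and COX8A. The share of all genes called under all 3 scalings, or in the fits below that left out 1 sample, was not worked out. These counts of members thus have no background beside them. The Ctrl and MYCN KD samples did not overlap for 36 members that were lower in MYCN KD (46.2%) and for 16 that were higher (20.5%), beside 35.8% and 40.4% of all genes. An exact permutation test of 2 samples against 2 cannot give a two-sided p below 0.3333, so the calls rest on the spread that limma pools across genes. Fits that left out 1 sample called 11 or 12 members lower and at most 1 higher. Of the 22 called members, NDUFA8, NDUFA12, SDHB, UQCRC2, UQCRFS1, COX5B, ATP5G1, ATP5C1 and ATP5F1 passed in all 4 of these fits, and 10 passed in none of them.

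**Figure D1:**
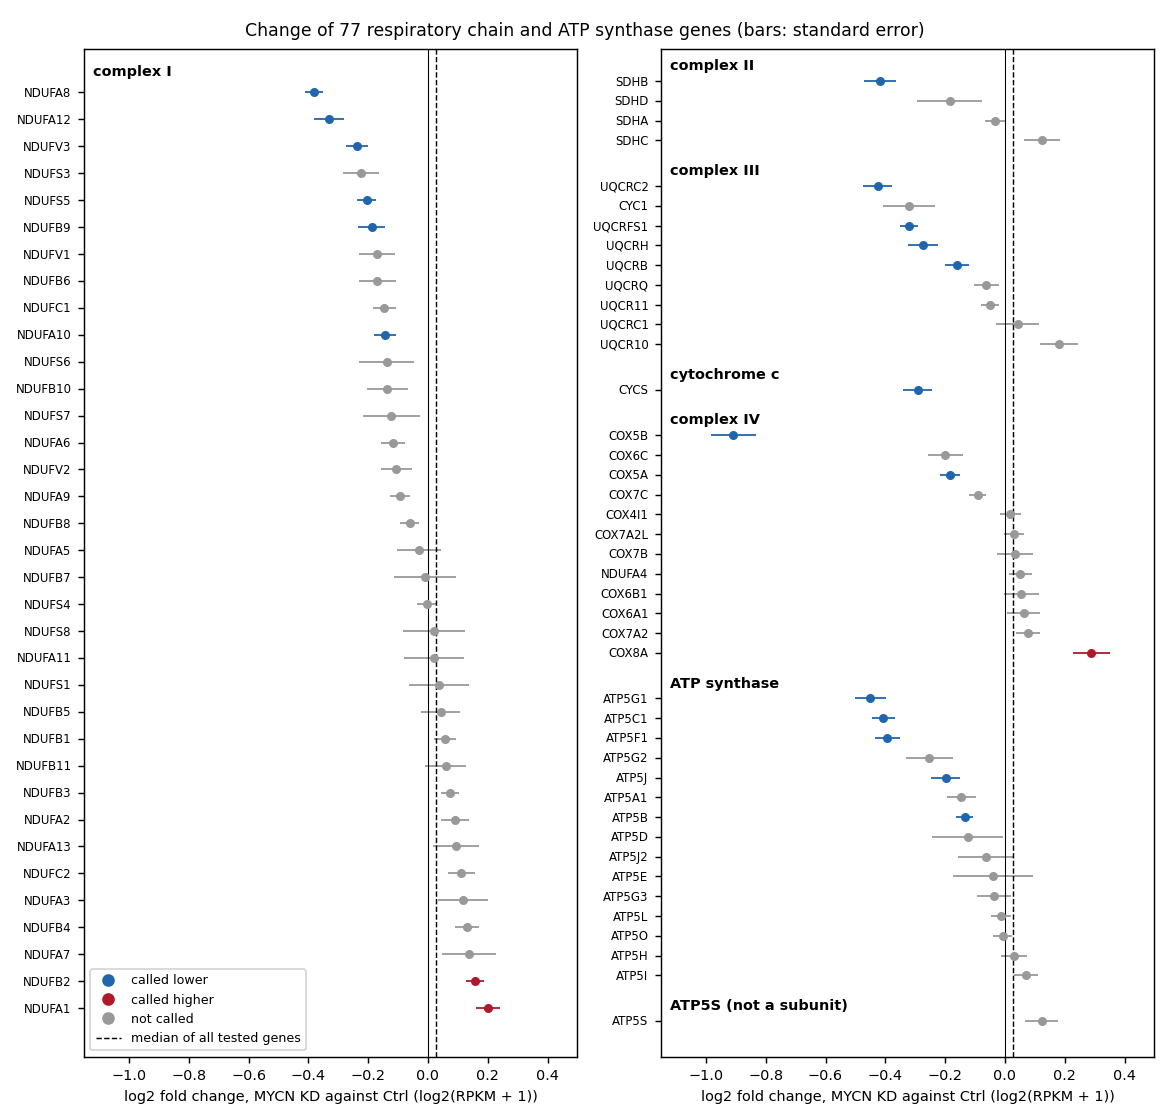
Log2 fold change of MYCN KD against Ctrl on log2(RPKM + 1) for 77 of the 78 tested members, grouped by complex (points, with the standard error from limma as bars); blue points fell and red points rose at an adjusted p under 0.05, and the dashed line is the median of all tested genes, 0.03. COX5B lies apart at -0.91, and most members of complex I lie near 0.

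Promoter sequences are shown for some of the members whose RNA differed most within their complex. Those of the pair of subunit c genes with the highest RPKM are also shown. They are from RefSeq, from 250 bases before to 50 bases after the gene start that RefSeq gives, and each matched GRCh37 exactly once. Capitals mark 3 sets of letters searched on both strands: the E-box CACGTG, to which MYC family factors bind, the NRF1 motif GCGCATGCGC and the ETS motif CCGGAAG, and none of these can contain another. Positions count from the gene start, whose first base is 1. A match is a description of the letters and not a binding site. The windows shown are not a full set of the members that fell. Those of UQCRC2, UQCRFS1, NDUFA12 and NDUFV3, which fell under all 3 scalings, hold none of the 3 sets of letters and are not shown. That of SDHB, which fell in complex II, holds CCGGAAG and is not shown either. COX5B and COX8A encode subunits of complex IV and moved in opposite directions. The COX5B window, chr2:98262275-98262574 on the plus strand, holds CCGGAAG at -37 and at -5. The COX8A window, chr11:63741842-63742141 on the plus strand, holds the same letters on the opposite strand at -18.
COX5B: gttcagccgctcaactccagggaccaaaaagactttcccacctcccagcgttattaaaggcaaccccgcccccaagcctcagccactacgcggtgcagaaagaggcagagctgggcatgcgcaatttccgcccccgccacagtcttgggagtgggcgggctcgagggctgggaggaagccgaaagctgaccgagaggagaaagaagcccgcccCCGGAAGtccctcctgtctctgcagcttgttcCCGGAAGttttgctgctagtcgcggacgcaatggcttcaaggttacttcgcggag
COX8A: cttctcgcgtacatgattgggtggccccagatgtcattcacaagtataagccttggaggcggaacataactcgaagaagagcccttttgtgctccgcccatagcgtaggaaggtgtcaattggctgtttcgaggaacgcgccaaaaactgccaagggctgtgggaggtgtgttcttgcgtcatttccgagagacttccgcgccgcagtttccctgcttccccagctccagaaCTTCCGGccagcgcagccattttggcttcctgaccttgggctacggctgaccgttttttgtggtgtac
ATP5G1 and ATP5G2 encode the same mature subunit c. The window of ATP5G1, chr17:46969899-46970198 on the plus strand, holds CACGTG at 5. That of ATP5G2, chr12:54069818-54070117 on the minus strand, holds none of the 3 sets of letters.
ATP5G1: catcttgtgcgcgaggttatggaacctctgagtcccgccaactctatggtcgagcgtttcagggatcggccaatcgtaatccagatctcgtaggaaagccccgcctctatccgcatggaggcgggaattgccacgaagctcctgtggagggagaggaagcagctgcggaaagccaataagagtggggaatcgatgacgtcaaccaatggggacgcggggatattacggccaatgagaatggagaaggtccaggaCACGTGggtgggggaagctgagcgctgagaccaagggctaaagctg
ATP5G2: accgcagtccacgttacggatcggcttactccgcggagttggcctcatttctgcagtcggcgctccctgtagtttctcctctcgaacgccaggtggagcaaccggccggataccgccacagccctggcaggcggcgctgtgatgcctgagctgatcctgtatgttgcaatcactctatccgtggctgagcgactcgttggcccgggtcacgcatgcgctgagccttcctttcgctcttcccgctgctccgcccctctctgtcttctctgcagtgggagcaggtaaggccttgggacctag
ATP5F1 (subunit b) and ATP5C1 (the gamma subunit) fell by like amounts. The ATP5F1 window, chr1:111991836-111992135 on the plus strand, holds CACGTG at -223, and the ATP5C1 window, chr10:7829890-7830189 on the plus strand, holds GCGCATGCGC at -22.
ATP5F1: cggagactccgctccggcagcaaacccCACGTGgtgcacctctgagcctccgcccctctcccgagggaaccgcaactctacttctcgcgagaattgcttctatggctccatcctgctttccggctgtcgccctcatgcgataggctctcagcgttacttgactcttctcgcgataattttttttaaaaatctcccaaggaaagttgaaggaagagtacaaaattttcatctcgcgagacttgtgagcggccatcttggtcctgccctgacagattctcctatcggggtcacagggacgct
ATP5C1: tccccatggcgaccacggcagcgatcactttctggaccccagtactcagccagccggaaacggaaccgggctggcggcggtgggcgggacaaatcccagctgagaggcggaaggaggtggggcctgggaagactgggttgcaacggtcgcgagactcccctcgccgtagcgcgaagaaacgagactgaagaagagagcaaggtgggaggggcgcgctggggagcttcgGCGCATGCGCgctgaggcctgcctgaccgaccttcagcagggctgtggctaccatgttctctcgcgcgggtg
NDUFA8 had the largest fall of complex I. Its window, chr9:124922009-124922308 on the minus strand, holds GCGCATGCGC at -4.
NDUFA8: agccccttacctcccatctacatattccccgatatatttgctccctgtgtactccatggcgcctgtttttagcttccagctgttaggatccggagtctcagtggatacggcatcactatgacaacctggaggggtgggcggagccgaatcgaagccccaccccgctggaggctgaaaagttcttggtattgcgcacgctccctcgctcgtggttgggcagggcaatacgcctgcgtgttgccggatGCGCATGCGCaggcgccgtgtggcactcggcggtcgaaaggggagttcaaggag

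A promoter was found for 63 members. CACGTG was present in 7 of them (11.1%), beside 7.43% of all 27305 promoters in the RefSeq table. GCGCATGCGC was present in 4 (6.35%), beside 1.36% of all promoters. CCGGAAG was present in 19 (30.2%), beside 10.7% of all promoters. The RefSeq table also holds promoters of genes that were not tested here, so the tested genes are the nearer comparison. Among tested genes with a promoter, CCGGAAG was present in 22.2% of the 2037 that fell and in 20.5% of the 6975 that did not. CACGTG was present in 15.7% of those that fell and in 9.22% of those that did not, and GCGCATGCGC in 2.65% and 2.52%. Within the members the numbers were small: CACGTG was present in 2 of 15 that fell (ATP5G1 and ATP5F1), in 0 of 3 that rose and in 5 of 45 that were not called. CCGGAAG was present in 4 of 15, 2 of 3 and 13 of 45 in the same order, and GCGCATGCGC in 2 of 15, 0 of 3 and 2 of 45.

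Members differed widely in level. ATP5B, the catalytic beta subunit of ATP synthase, was highest at 1196 RPKM in both Ctrl samples. COX7B was the highest of complex IV at a Ctrl mean of 624 RPKM and NDUFA13 the highest of complex I at 474 RPKM. At the low end by RPKM, ATP5E, the epsilon subunit, had a Ctrl mean of 12.3 RPKM and NDUFA5, an accessory subunit of complex I, had 10.8 RPKM. RPKM divides by gene length. NDUFA5 had 2288 and 2350 reads in Ctrl, more than NDUFB2 with 2017 and 1891 reads at a Ctrl mean of 119 RPKM. ATP5E overlaps a read-through gene listed at 0, and how shared reads were counted is not given in the sources used here. Median Ctrl levels were 118.7 RPKM for complex I, 49.1 RPKM for complex II, 130.4 RPKM for complex III, 318 RPKM for complex IV and 209 RPKM for ATP synthase. The tested members had between 139 and 75232 reads per sample, with a median of 4926.5, so that counting error was small for most of them. It was largest for ATP5E.

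**Figure D2:**
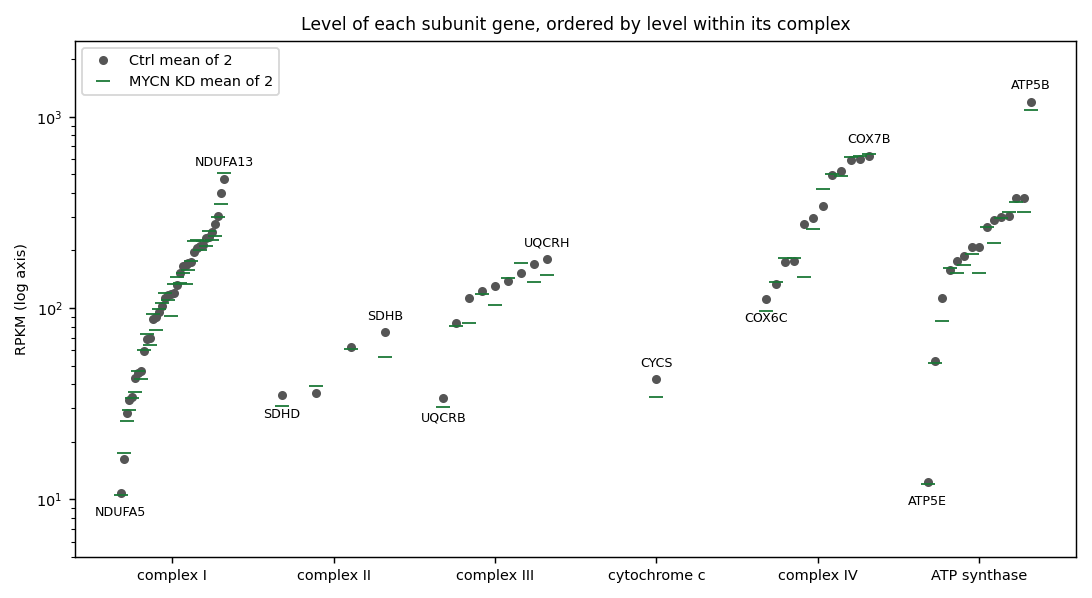
RPKM (log axis) of each subunit gene in Ctrl (dots) and MYCN KD (green dashes), each the mean of 2 samples, ordered by Ctrl level within its complex. Levels run from 10.8 RPKM for NDUFA5 to 1196 RPKM for ATP5B, and the differences between the groups are small beside the differences between genes.

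Complex I takes electrons from NADH through a peripheral arm of core subunits and passes them to ubiquinone, with many accessory subunits around the core. Of its 36 genes, 6 fell (16.7%) and 2 rose (5.56%), beside 22.8% and 25.3% of all genes. The median log2 fold change was -0.02, beside 0.03 for all genes. It was 0.04 under either other scaling, beside 0.08 for all genes with the total set equal and -0.0011 after quantile normalization. As deposited, none of the 7 nuclear core subunit genes passed the limma test, while 6 of 29 accessory genes fell and 2 rose. The calls in both sets depended on the scaling. With the total set equal, 5 of the 36 genes fell and 7 rose (13.9% and 19.4%), beside 18.6% and 28.8% of all genes. After quantile normalization 4 fell and 7 rose (11.1% and 19.4%), beside 26.3% and 25.3% of all genes. The difference between core and accessory genes was not tested. Among the core genes, NDUFS3 was at 92.6 and 86.4 RPKM in Ctrl and at 73.8 and 79.1 RPKM in MYCN KD (log2 fold change -0.22, adjusted p = 0.0545), and it passed without Ctrl replicate 2, at -0.27 and an adjusted p of 0.0451. NDUFV1, which holds the NADH binding site, was at 157.9 and 147.2 RPKM in Ctrl and at 130.7 and 140.1 RPKM in MYCN KD, with an adjusted p of 0.0961. These groups did not overlap, but the spread within them was wide. Further core genes had log2 fold changes of -0.12 for NDUFS7, -0.11 for NDUFV2, 0.02 for NDUFS8 and 0.04 for NDUFS1. The median over the 7 core genes was -0.11 as deposited, -0.05 with the total set equal and -0.01 after quantile normalization.

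Of the accessory subunits of complex I, NDUFA8, which lies on the side of the intermembrane space, was at 118.6 and 117.4 RPKM in Ctrl and at 89.9 and 90.9 RPKM in MYCN KD. The groups lay far apart relative to their spread, and the log2 fold change was -0.38 with a standard error of 0.031 and an adjusted p of 0.00564. NDUFA12, on the peripheral arm, was at 172.7 and 164.1 RPKM in Ctrl and at 130.2 and 137.0 RPKM in MYCN KD. It fell by 0.33 on the log2 scale (standard error 0.049, adjusted p = 0.0151). NDUFV3, a small protein next to the NADH binding subunit, fell by 0.24, NDUFS5 by 0.21, NDUFB9 by 0.19 and NDUFA10 by 0.14. Apart from NDUFA8 and NDUFA12, none of these falls passed in any fit that left out 1 sample. NDUFS5 was not called after quantile normalization, and NDUFA10 was not called under either other scaling. NDUFA1, a small membrane subunit, was at 199.4 and 191.9 RPKM in Ctrl and at 220.8 and 229.2 RPKM in MYCN KD, a rise of 0.20 (adjusted p = 0.0293). NDUFB2, also of the membrane arm, was at 119.3 and 119.5 RPKM in Ctrl and at 133.2 RPKM in both MYCN KD samples, a rise of 0.16 (adjusted p = 0.0248). Neither rise passed in any fit that left out 1 sample.

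Complex II is the succinate dehydrogenase of the citric acid cycle and has 4 nuclear subunits. SDHB, the iron-sulfur subunit, was the member that fell. It was at 72.5 and 76.7 RPKM in Ctrl and at 57.1 and 54.1 RPKM in MYCN KD, which gave a log2 fold change of -0.42 (standard error 0.052, adjusted p = 0.0108). SDHA, the flavoprotein that oxidises succinate, was at 62.1 and 62.9 RPKM in Ctrl and at 61.4 and 60.7 RPKM in MYCN KD, with a log2 fold change of -0.03. Thus the catalytic pair was at 74.5% and 97.7% of the control level. The membrane anchors were not called. SDHD had a log2 fold change of -0.18, with Ctrl at 32.7 and 37.7 RPKM and MYCN KD at 33.0 and 28.8 RPKM, and SDHC had 0.12, with Ctrl at 34.5 and 37.0 RPKM and MYCN KD at 40.4 and 37.8 RPKM.

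Complex III passes electrons from ubiquinol to cytochrome c. Of its 9 genes, 4 fell (44.4%) and none rose as deposited, beside 22.8% and 25.3% of all genes, with a median log2 fold change of -0.16. Under each of the other scalings 2 fell (22.2%, beside 18.6% and 26.3% of all genes) and UQCR10 was called higher, with medians of -0.10 and -0.12. UQCRC2, a core protein of the matrix side, was at 109.9 and 115.8 RPKM in Ctrl and at 85.8 and 81.7 RPKM in MYCN KD, which gave a log2 fold change of -0.43 (adjusted p = 0.00946). UQCRC1, its partner, was at 144.7 and 132.6 RPKM in Ctrl and at 136.7 and 148.8 RPKM in MYCN KD, so that the groups overlapped at a log2 fold change of 0.04. UQCRFS1, the Rieske iron-sulfur protein, was at 129.6 and 131.3 RPKM in Ctrl and at 104.9 and 103.7 RPKM in MYCN KD, a fall of 0.32 (adjusted p = 0.00712). CYC1, the cytochrome c1 subunit on chromosome 8, had a fold change of the same size, -0.32, with Ctrl at 179.9 and 161.4 RPKM and MYCN KD at 129.1 and 143.6 RPKM. The wider spread left CYC1 at an adjusted p of 0.0548, and it passed without Ctrl replicate 2 (-0.40, adjusted p = 0.00189) and without MYCN KD replicate 2 (-0.40, adjusted p = 0.00263). UQCRH, the hinge protein that binds cytochrome c1, fell by 0.27 and UQCRB by 0.16, and neither was called under the other scalings. UQCRH shares nearly all of its sequence with UQCRHL, so the split of reads between them is uncertain, and its call was lost without Ctrl replicate 2 (adjusted p = 0.0817) or MYCN KD replicate 2 (adjusted p = 0.0874).

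CYCS encodes cytochrome c, the mobile carrier between complexes III and IV, which also starts the caspase cascade when it leaves the mitochondrion. It was at 41.3 and 43.4 RPKM in Ctrl and at 35.2 and 33.6 RPKM in MYCN KD, or 81.2% of the control level (log2 fold change -0.29, adjusted p = 0.0198). With the total set equal, CYCS was just above the threshold (-0.23, adjusted p = 0.0529), and it was above it without Ctrl replicate 2 (-0.26, adjusted p = 0.0806) and without MYCN KD replicate 2 (-0.26, adjusted p = 0.0938). The annotation holds 42 pseudogenes of CYCS, which could take or give reads.

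Complex IV reduces oxygen with a catalytic core encoded in mitochondrial DNA and nuclear subunits around it. COX5B, which binds zinc on the matrix side, was at 285.8 and 261.4 RPKM in Ctrl and at 138.9 and 151.7 RPKM in MYCN KD. Both MYCN KD samples were far below both Ctrl samples, and the log2 fold change was -0.91 with a standard error of 0.074 and a 95% confidence interval from -1.13 to -0.69 (adjusted p = 0.00568). The value was -0.85 and -0.79 under the other scalings. COX5B lies on chr2:98262525-98264846 of GRCh37 and has 4 exons. COX5A, a neighbouring matrix subunit, was at 290.8 and 298.0 RPKM in Ctrl and at 261.9 and 256.0 RPKM in MYCN KD. Its fall of 0.18 (adjusted p = 0.0236) was not called under either other scaling or in any fit that left out 1 sample. COX4I1, the ubiquitous form of the largest nuclear subunit, was at 503.6 and 491.1 RPKM in Ctrl and at 497.3 and 509.9 RPKM in MYCN KD, and its log2 fold change of 0.02 had an interval from -0.08 to 0.12. COX8A, a small membrane subunit, was at 353.5 and 328.8 RPKM in Ctrl and at 402.1 and 431.4 RPKM in MYCN KD, a rise of 0.29 (adjusted p = 0.0326). The rise passed under each scaling, but not without Ctrl replicate 2 (0.24, adjusted p = 0.0772) or MYCN KD replicate 2 (0.24, adjusted p = 0.0756), nor when genes of any level were tested (adjusted p = 0.0543). COX6C, the lowest of complex IV, had a log2 fold change of -0.20 and was not called. The highest, COX7B, had 0.03.

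**Figure D3:**
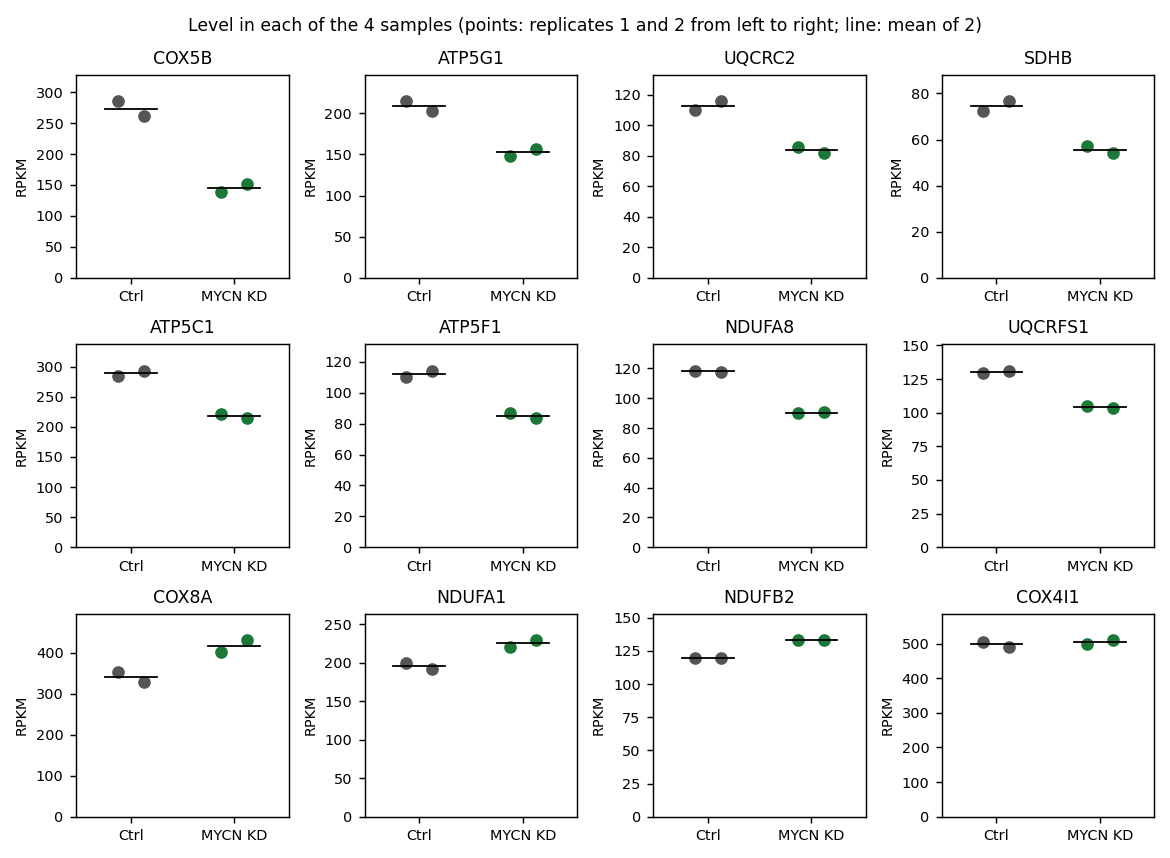
RPKM of 12 members in each of the 4 samples (points, with Ctrl in grey and MYCN KD in green, and the mean of 2 as a line, each axis from 0). The 8 members in the upper rows fell, with COX5B from 261 to 286 RPKM in Ctrl to 139 to 152 RPKM in MYCN KD, COX8A, NDUFA1 and NDUFB2 rose, and the groups overlap for COX4I1.

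ATP synthase turns a ring of c subunits in the membrane, and the gamma subunit in the centre of the F1 head turns with it. Of its 15 genes, 5 fell (33.3%) and none rose, beside 22.8% and 25.3% of all genes, with a median log2 fold change of -0.12. Under the other scalings the median was -0.06 and -0.03, 4 and 3 genes fell (26.7% and 20%, beside 18.6% and 26.3% of all genes), and 1 and 2 rose. ATP5C1, the gamma subunit, was at 283.9 and 293.4 RPKM in Ctrl and at 220.8 and 214.2 RPKM in MYCN KD, a fall of 0.41 (standard error 0.038, adjusted p = 0.00665). ATP5F1, subunit b of the peripheral stalk that holds the head still, was at 110.0 and 114.4 RPKM in Ctrl and at 86.7 and 83.6 RPKM in MYCN KD, a fall of 0.39 (adjusted p = 0.00811). The alpha and beta subunits, which form the catalytic head, moved less. ATP5A1 (alpha) was at 181.8 and 191.5 RPKM in Ctrl and at 172.7 and 164.4 RPKM in MYCN KD, with a log2 fold change of -0.15 that was not called (adjusted p = 0.0843). ATP5B (beta) was at 1195.6 and 1195.9 RPKM in Ctrl and at 1088.6 and 1089.4 RPKM in MYCN KD, a fall of 0.13 (adjusted p = 0.0313) that was not called under either other scaling and turned to 0.08 after quantile normalization. ATP5J, coupling factor 6 of the peripheral stalk, fell by 0.20 as deposited and was not called after quantile normalization. Neither ATP5B nor ATP5J passed in any fit that left out 1 sample. ATP5E, the epsilon subunit, had values of 13.5 and 11.2 RPKM in Ctrl and at 10.9 and 13.0 RPKM in MYCN KD, which overlap.

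Subunit c is encoded by ATP5G1, ATP5G2 and ATP5G3, whose proteins differ in the import sequence that is cut off. The genes differed in their values. ATP5G1 was at 215.0 and 203.3 RPKM in Ctrl and at 148.6 and 157.1 RPKM in MYCN KD, which gave a log2 fold change of -0.45 (standard error 0.052, interval from -0.60 to -0.30, adjusted p = 0.00949). ATP5G2, the highest of the set, was at 395.3 and 359.4 RPKM in Ctrl and at 301.8 and 331.3 RPKM in MYCN KD, which gave a log2 fold change of -0.25 with an interval from -0.48 to -0.02. Its groups did not overlap, but its adjusted p was 0.0714, and it passed without Ctrl replicate 2 (-0.32, adjusted p = 0.013) and without MYCN KD replicate 2 (-0.32, adjusted p = 0.0137). ATP5G3, the lowest by RPKM, was at 51.1 and 54.5 RPKM in Ctrl and at 53.0 and 49.9 RPKM in MYCN KD. These overlap, and the interval of its log2 fold change ran from -0.20 to 0.13. By reads it was not the lowest in Ctrl, at 6077 and 6066 beside 4743 and 4199 for ATP5G1. The summed level of the 3 genes was 661 and 617 RPKM in Ctrl and at 503 and 538 RPKM in MYCN KD, or 81.5% of the control level. The 5 genes of the F1 head together were at 88.7%. Differences between the 3 genes were not tested.

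**Figure D4:**
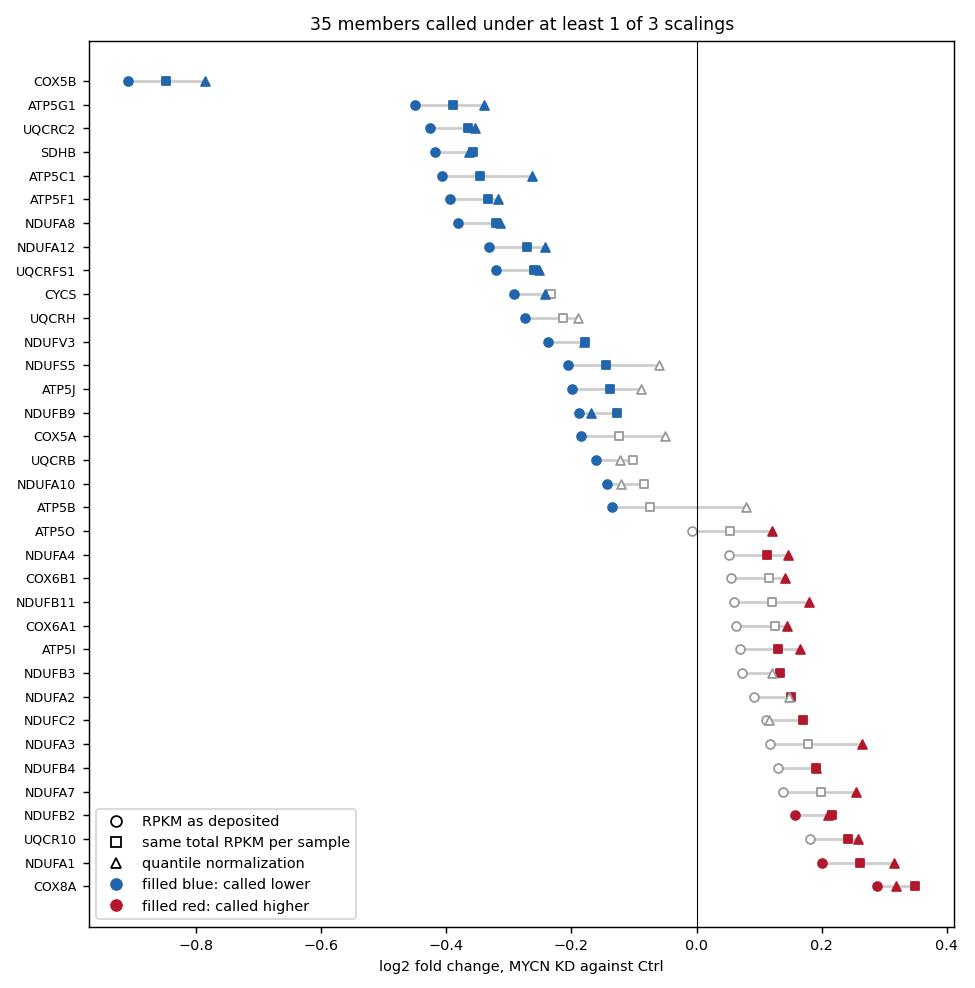
Log2 fold change of 35 members called under at least 1 of 3 scalings (circles, RPKM as deposited; squares, all samples set to an equal total; triangles, quantile normalization), with filled marks called lower (blue) or higher (red). The larger falls, from COX5B to UQCRFS1, stay called under each scaling, while ATP5B crosses from -0.13 to 0.08.

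The 2 members under the level filter had few reads. ATP5EP2, a pseudogene of the epsilon subunit, had 9 and 22 reads in Ctrl and 9 and 3 reads in MYCN KD. ATP5L2, which resembles subunit g, had 12 and 14 reads in Ctrl and 17 and 15 reads in MYCN KD. Neither was tested. ATP5S, a tested gene that is named for ATP synthase, was at 4.41 and 4.70 RPKM in Ctrl and at 5.21 and 4.89 RPKM in MYCN KD and was not called.

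The chain is put together by assembly factors, proteins that insert cofactors and join subunits without staying in the complex. Of 50 tested assembly factor genes from lists for the 5 complexes, 20 fell (40.0%) and 3 rose (6.0%), and the median log2 fold change was -0.14, beside 22.8% and 25.3% of all genes and a median of 0.03. With the total set equal, 15 fell and 5 rose, beside 18.6% and 28.8% of all genes. After quantile normalization 20 fell and 4 rose, beside 26.3% and 25.3% of all genes. NDUFAF2, a paralog of NDUFA12 that holds a late intermediate of complex I, was at 50.5 and 51.0 RPKM in Ctrl and at 21.4 and 21.3 RPKM in MYCN KD. It fell by 1.21 on the log2 scale (standard error 0.033, adjusted p = 0.00359). NDUFAF4, another complex I assembly factor, fell by 0.66 and ECSIT, which also acts in innate immune signalling, by 0.52, and 9 of 16 genes of that list fell in all. For complex II, 2 of 4 fell, SDHAF2 (by 0.39), which helps to attach flavin to SDHA, and SDHAF3 (by 0.28), which serves the iron-sulfur subunit.

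For complex III, 3 of 6 assembly genes fell, beside 22.8% of all genes. They were UQCC3 (by 0.51), LYRM7 (by 0.39) and BCS1L (by 0.33). LYRM7 and BCS1L act on the Rieske protein UQCRFS1, and LYRM7 was not called with the total set equal. For complex IV, 6 of 20 fell and 3 rose, beside 22.8% and 25.3% of all genes. With the total set equal 5 fell and 4 rose, beside 18.6% and 28.8% of all genes. After quantile normalization 7 fell and 3 rose, beside 26.3% and 25.3% of all genes. COA4, a small protein of the intermembrane space, was at 198.2 and 191.8 RPKM in Ctrl and at 108.2 and 111.9 RPKM in MYCN KD, a fall of 0.82 (adjusted p = 0.00359). The copper chaperone gene SCO1 fell by 0.47 and COX14 by 0.44, while CEP89 rose by 0.64, SURF1, an early assembly factor, by 0.37 and PET100 by 0.27. Of the 4 genes of ATP synthase assembly and regulation none was called as deposited by limma, and ATPIF1, the inhibitor of ATP hydrolysis, was called higher under each of the other scalings.

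**Figure D5:**
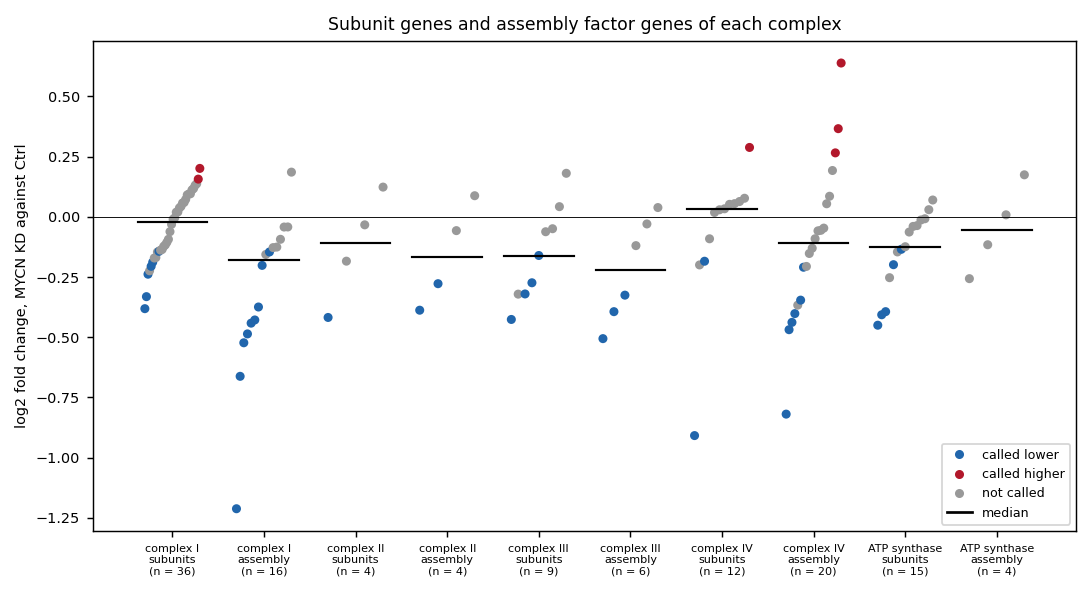
Log2 fold change of MYCN KD against Ctrl for the subunit genes and the assembly factor genes of each complex (points, 1 gene each; lines, medians; blue, called lower; red, called higher). NDUFAF2 at -1.21, COX5B at -0.91 and COA4 at -0.82 are the lowest points, and CEP89 at 0.64 is the highest.

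Subunit genes that the symbol rule did not reach gave further values. NDUFAB1, the acyl carrier protein of complex I, was at 172.4 and 175.5 RPKM in Ctrl and at 140.8 and 138.5 RPKM in MYCN KD, a fall of 0.31 (adjusted p = 0.00778). C14orf2, a small ATP synthase subunit, fell by 0.22 and UQCRHL by 0.35, each of them called under one of the other scalings and not under both, while USMG5 was not called (-0.02). Of 7 tissue-specific paralogs of chain subunits, 2 were tested. COX4I2, the lung form of COX4I1, rose from 1.16 and 0.96 RPKM to 1.91 and 2.32 RPKM (log2 fold change 0.60, adjusted p = 0.0174). COX6A2, the muscle form, was listed at 0 in each sample. The 13 subunits encoded by mitochondrial DNA were not analysed here.

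Of 13 genes known to regulate transcription of chain genes or of mitochondrial DNA, 4 fell and 2 rose. Among all genes 22.8% fell and 25.3% rose. PPRC1, a coactivator of the PGC-1 family, was at 52.9 and 46.6 RPKM in Ctrl and at 23.4 and 26.5 RPKM in MYCN KD, a fall of 0.97 (adjusted p = 0.00774). Its relative PPARGC1B fell by 0.95, from 3.98 and 4.34 RPKM to 1.74 and 1.61 RPKM, while PPARGC1A rose by 0.47, from 1.88 and 2.22 RPKM to 3.50 and 2.98 RPKM. The family thus held changes in both directions. TFB2M, a transcription factor of mitochondrial DNA, fell by 0.81 and NRF1, which acts on promoters of chain genes, by 0.31, the latter not with the total set equal. ESRRA, a nuclear receptor and partner of PGC-1 coactivators, rose by 0.33. TFAM, which packs mitochondrial DNA, was at -0.28 and was called only after quantile normalization. These 13 genes and the assembly factors were not members, and no test set them against the subunit genes.

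Markers of other cell types were at or under 11.8 RPKM in each sample, and several were well above the level filter. PDGFRB reached 11.8 RPKM, CD68 11.5 RPKM and S100B 7.29 RPKM in MYCN KD replicate 2, and DCN 9.33 RPKM in MYCN KD replicate 1. LUM reached 8.19 RPKM in Ctrl replicate 2 and was not called. Of 6 fibroblast markers 4 were tested and 3 rose (COL1A1, DCN and PDGFRB), with a summed level of 23.0 to 25.1 RPKM in Ctrl and at 28.5 to 31.1 RPKM in MYCN KD, and COL1A2 stayed at or under 0.0254 RPKM. Of 6 immune markers, CD68 was the only one tested and rose by 1.23, while PTPRC was at or under 0.00464 RPKM, and the summed level was 3.64 to 4.68 RPKM in Ctrl and at 9.85 to 12.6 RPKM in MYCN KD. Of 4 Schwann markers 2 were tested and both rose, S100B by 0.71, and the sum was 4.86 to 5.30 RPKM in Ctrl and at 8.91 to 9.69 RPKM in MYCN KD, with SOX10 at or under 0.0722 RPKM. None of 4 endothelial markers was above 0.525 RPKM. Of the noradrenergic markers, PHOX2A, DBH and CHGB rose by 0.97, 0.92 and 0.64. In all, 2 of the 10 fell and 6 rose as deposited, and 0 fell and 8 rose under each other scaling. The part of these markers in the values of the members was not tested.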

How the data were processed

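RNA-seq of 2 Ctrl and 2 MYCN KD samples of BE(2)C cells was analysed, with groups and replicate numbers from the sample labels. The authors aligned reads to hg19 with HISAT2 2.1.0, counted them with featureCounts, normalized with DESeq2 and RUVSeq and deposited RPKM values. For the 11411 genes whose mean was 1 RPKM or more, limma (version 3.58.1, R 4.3.3; eBayes with a trend, no block) was fitted to log2(RPKM + 1), and p-values were adjusted by Benjamini-Hochberg and called under 0.05. Fold changes on this scale are understated for low genes. Complexes were assigned by hand, and members, lists and the rule for named genes (subunits of known catalytic role, the largest called changes and the ends of the level range per complex) were chosen with earlier results of these data known. Other scalings, filters, pseudocounts, the replicate block and leaving out each sample were tried. The fit was also tested on simulated data with independent replicates. Those lack the mirror image seen in the real replicates, so the effect of that feature on the p-values was not tested.

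Reads were recovered by dividing each RPKM by the value of 1 read, with totals set from small RNA genes of known length. The length of each gene was taken as the smallest whole number that made the reads of all 4 samples whole. Recovered reads of a gene can therefore be too low by a whole factor shared by its 4 samples. Of 19908 genes above 0, 99.95% gave whole reads within 0.01 reads. The recovered reads follow the authors' normalization and are not raw depth. Confidence intervals of fold changes are those of limma and rest on the spread between samples. The replicate number was not used to pair the samples, and whether same-numbered cultures were run together is not given. Positions are from GENCODE release 44 lifted to GRCh37, and 4 rows with 2 date-like symbols held no member. Whether counting used strand is not given in the sources used here. The annotation holds pseudogenes of 49 members, which could take or give reads, and NDUFC2, ATP5E and ATP5J2 overlap read-through genes listed at 0. Tables were made with pandas 2.3.3, numpy 2.4.6 and scipy 1.17.1 in Python 3.11.15, and plots with matplotlib 3.10.9. Results of some genes are not reported here by name. The authors' other assays were not analysed here.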

Additional observations from a re-analysis of the deposited data

How the results depend on the processing

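As deposited, 19 members fell and 3 rose. After quantile normalization 12 fell and 14 rose, and with all samples set to an equal total RPKM 11 rose; the cause was not tested. Of the named genes that were called, ATP5B changed sign, to 0.0796 after quantile normalization, and the medians of all members and of complex I also did, as did members close to 0. Without each sample in turn, 11 to 12 fell and 0 to 1 rose, where the lone sample of a group is assumed to vary like the others. The median over the members in these fits ran from -0.09 to -0.04. Without a filter on low values 15 members fell and 2 rose, and ATP5B, ATP5J, COX8A and UQCRB were among those no longer called (adjusted p from 0.0543 to 0.078). The counts stayed within 1.5 times of the 19 and 3 as deposited under another pseudocount, no trend, a mean of at least 5 RPKM and no filter. They also did so under limma voom on the recovered reads, chosen after seeing the data. The share of all genes called was not worked out without the filter or without 1 sample. Those counts of members thus have no background beside them.

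With the replicate block 9 members fell and 0 rose, beside 1851 and 2077 of all 11411 genes. CYC1 was gained (limma, adjusted p = 0.0474). The block was not the basis of any call, since same-numbered samples deviated in opposite directions (correlation -0.985). In a crossed pairing chosen after seeing the data, 47 fell and 30 rose. The share over all genes was not worked out for this fit, so these counts are no result about the members. Few reads kept ATP5EP2 and ATP5L2 out of the test, and the tested member with the fewest reads was ATP5E.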

Other observations

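The replicates of both groups differed along the base composition of the transcripts. Over 77 members with a transcript in the annotation, whose GC content ran from 34.6% to 69.5%, the Spearman correlation of GC content with the log2 difference of Ctrl replicate 1 from Ctrl replicate 2 was 0.668, and with that of the MYCN KD replicates it was -0.667. These are descriptions across genes that share their libraries. In the 25 members of lowest GC content the median difference was -0.03 in Ctrl and 0.03 in MYCN KD, and in the 25 of highest GC content it was 0.12 and -0.11. For 76 of the 77 members the replicate difference had opposite signs in the 2 groups.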
